A study of Mus musculus with 18 samples.

Results

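The genes described here are those of the proteasome, taken as every row of the liver expression table whose symbol has the form of a proteasome subunit (Psma, Psmb, Psmc, Psmd, Psme, Psmf or Psmg followed by a number). The rule found 50 of 19057 rows. They were placed in classes by role: 8 core alpha genes, 7 core beta genes, 4 immunosubunit and thymus-specific beta genes, 6 cap ATPases, 11 cap non-ATPase subunits, 6 activator or inhibitor genes and 7 assembly chaperones. The last match, Psmc3ip, is a recombination factor that shares the letters of the symbol and is not a subunit. A filter on low values kept 47 of them. The 3 that did not pass were Psma8 (testis form of a core alpha subunit), Psmb11 (thymus beta subunit) and Psme2b, whose mean RPKM over all libraries was 0.67, 0.00 and 0.28.

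The proteasome is the barrel-shaped protease that destroys proteins tagged with ubiquitin. Its core particle is a stack of alpha and beta rings, and the cutting sites are on the beta subunits Psmb5, Psmb6 and Psmb7. A cap, or regulatory particle, sits on the end of the barrel, where its non-ATPase subunits catch and strip ubiquitin and its ATPase ring unfolds the protein and feeds it in. Interferon gamma induces Psmb8, Psmb9 and Psmb10, which take the places of Psmb5, Psmb6 and Psmb7 and favour peptides for antigen presentation, and it also induces the activator subunits Psme1 and Psme2. When proteasome activity is short, the transcription factor Nfe2l1 raises core and cap genes together.

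Liver RNA of ICR mice aged 10 weeks was sequenced in 18 libraries, labelled as 3 in each of 6 groups. The study asked whether gut microbiota from mice given alginate oligosaccharide (AOS), a seaweed carbohydrate, counters the effects of a high-fat diet on male fertility and metabolism, and the liver was 1 of the tissues read. Con was the control, AOS received AOS at 10 mg/kg, HFD received a high-fat diet, and HFD+AOS received the high-fat diet with AOS at 10 mg/kg. Con-FMT and A10-FMT mice were on the high-fat diet and received a microbiota transplant (FMT) from control donors or from donors given AOS at 10 mg/kg. According to the study's methods the mice were male and the transplanted material was small intestinal content pooled over the donors of a group, so the recipients of a group shared an inoculum. The methods describe the Con, HFD and FMT groups, and for the AOS and HFD+AOS livers the labels are the source. The labels name no allele, so all groups share the ICR stock and differ in diet, AOS and transplant, and by the methods Con and HFD mice were given saline. The labels do not tie the libraries to cages or litters, so p-values measure the spread between these samples.

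Values are RPKM, reads scaled to transcript length and to the size of the library, which allow levels to be compared between genes. The RPKM of a library summed to between 692303 and 806937, between 14512 and 14982 genes were above 0, and the number of reads behind a value is unknown. Differences are on the log2(RPKM + 1) scale, and a gene is called when limma's two-sided test gave a Benjamini-Hochberg adjusted p under 0.05 over all 10507 genes tested. Hepatocyte markers dominated every library (summed RPKM 37231 to 61190 over 8 genes). Some libraries stood apart. Among genes that differed by at least 1 on the log2 scale between the first and second replicates, the third lay between them for 98.0% of 148 genes in Con and 96.5% of 142 in AOS, against 60.0% to 76.8% in the other groups. Whether the third Con and AOS libraries are separate livers is not given, so the number of livers in these groups may be 2, and SDs and p-values that treat it as 3 may be too small. Replicate 2 of HFD held the highest value of all 18 libraries for 27 of the 47 proteasome genes, 16 of the 17 cap genes among them, while 11.9% of all genes tested had their highest value there. Replicate 1 of Con held the lowest value for 21.5% of all genes tested, the largest such share of any library, and for 3 of the 47 proteasome genes. Values without the third Con and AOS libraries and without replicate 2 of HFD are given beside the medians, the calls and the shares below. In bulk tissue, fewer cells of a type and less RNA per cell cannot be told apart.

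A few sequences place the genes the results turn on, taken from RefSeq (GRCm38.p6, the assembly that mm10 names), which gave a promoter for 42 of the 50 genes. The immunosubunit gene Psmb9 and the peptide transporter gene Tap1 start on opposite strands of chromosome 17 with 225 bases between their starts, and Psmb8 lies beside them at 34198195 to 34201454. This shared stretch is shown because any element in it stands upstream of both genes (chr17:34187331-34187555, minus strand, read towards Psmb9; capitals mark a CCAAT box, read here on the other strand).
Psmb9 and Tap1: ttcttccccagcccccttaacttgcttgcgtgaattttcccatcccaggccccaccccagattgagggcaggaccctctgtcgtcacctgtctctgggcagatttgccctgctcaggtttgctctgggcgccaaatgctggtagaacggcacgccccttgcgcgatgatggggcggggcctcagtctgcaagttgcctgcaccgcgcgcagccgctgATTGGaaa

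Psmd11, a scaffold subunit of the cap lid, was 1 of the 2 genes called below. Its gene lies at chr11:80428615-80473248 on the plus strand, and the 100 bases before its start (chr11:80428515-80428614) held none of the 3 motifs searched.
Psmd11: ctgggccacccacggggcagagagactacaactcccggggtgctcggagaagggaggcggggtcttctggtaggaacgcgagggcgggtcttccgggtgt

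The motifs were searched on both strands from 250 bases before to 50 bases after each start. They were the core of the antioxidant response element (TGACNNNGC), the letters to which Nfe2l1 and Nfe2l2 bind, the CCAAT box (CCAAT) and the interferon gamma activated site (TTCNNNGAA). The antioxidant letters were found in 6 of 42 proteasome genes, or 14.3%, and in 14.0% of all 27025 genes with a promoter. CCAAT was found in 6 of 11 core genes and 4 of 14 cap genes with a promoter, against 41.1% of all genes. The interferon letters were found in 3 of the 42, namely Psmb8, the chaperone Psmg1 and Psmd2 (called below, 4 bases past its start), against 9.55% of all genes. Shares of this size are near those of all genes, and a match in letters is not a bound site. Single matches, in capitals, are shown for a core, a cap, a chaperone and an immunosubunit gene (chr14:54618024-54618052 on the minus strand; chr14:45329587-45329615, chr5:123228149-123228177 and chr17:34198088-34198116 on the plus strand).
Psmb5: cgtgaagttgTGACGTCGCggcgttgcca
Psmc6: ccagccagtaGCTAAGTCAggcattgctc
Psmd9: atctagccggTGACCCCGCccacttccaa
Psmb8: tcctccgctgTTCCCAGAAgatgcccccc

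Core genes were expressed above cap genes. Over all 18 libraries the mean RPKM of the 14 core genes tested went from 45.3 for Psma5 to 160 for Psmb3, with a median of 90.6. That of the 17 cap genes went from 28.2 for Psmd14, the enzyme that cuts ubiquitin chains off the substrate, to 77.2 for Psmd8, with a median of 45.5. The highest core alpha gene was Psma4 at 112, the lowest core beta gene Psmb5 at 74.8, and the cap ATPases lay between Psmc6 at 41.6 and Psmc1 at 65.1. Psmb8, Psmb9 and Psmb10 were lower, at 28.99, 26.4 and 19.9. Psme1 and Psme2, which form 1 activator ring, stood at 95.3 and 92.3, near the core, whereas the activator Psme4 was at 15.1 and the inhibitor Psmf1 at 9.50. The chaperones, which build the particles and are not part of them, went from 5.75 for Psmd10 to 17.97 for Psmg1. The median coefficient of variation within groups was 5.87% for core and 6.17% for cap genes, against 8.25% for the 1424 genes tested in the same range of levels and 15.9% for the immunosubunits.

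**Figure D1:**
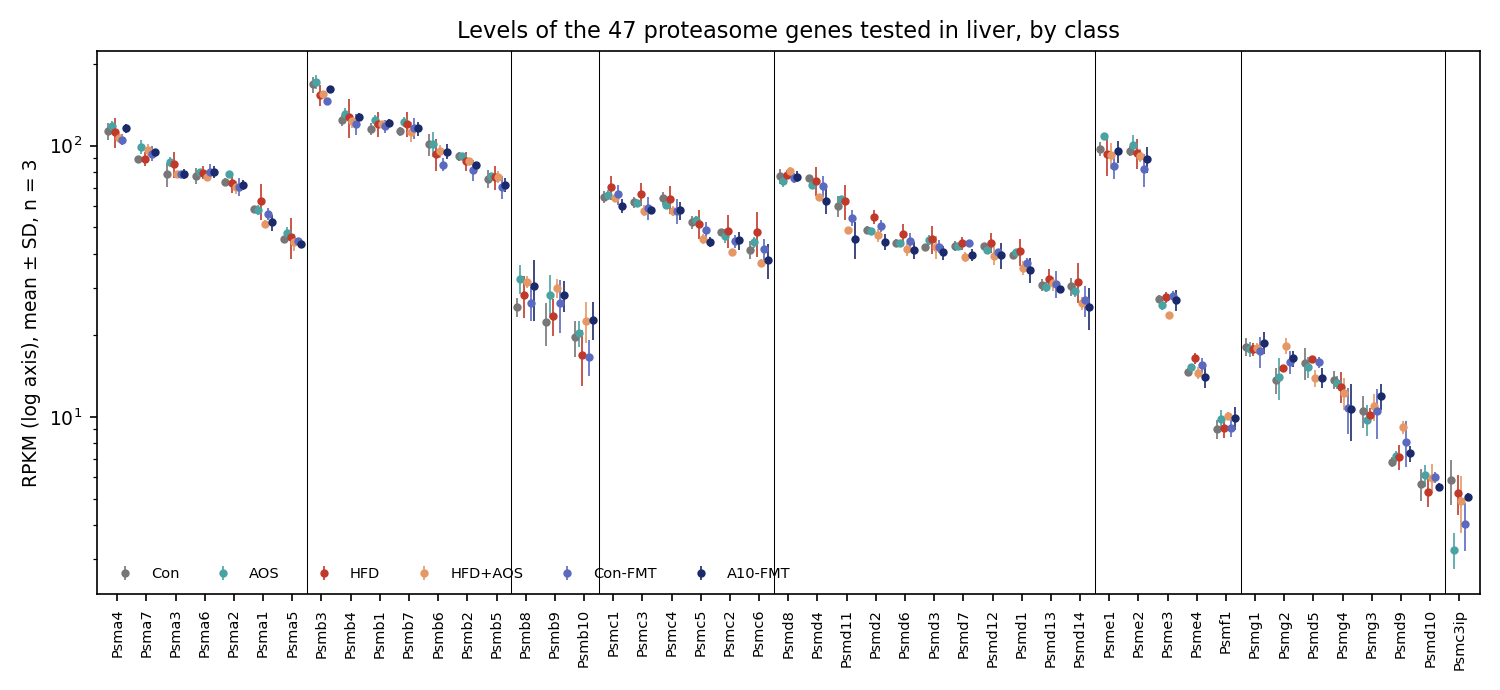
Mean RPKM (log axis) ± SD of the 47 proteasome genes tested in each of the 6 groups (n = 3), ordered by class and by level. Core genes lie highest with Psme1 and Psme2, the immunosubunits near 20 to 30, and group means of a gene lie close together beside the range between genes.

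Subunits of the particle varied together between livers of the same group. With group means subtracted, the median Pearson r over pairs of genes across the 18 libraries was 0.66 within the core, 0.71 within the cap and 0.61 between core and cap, against 0.13 over all pairs of genes tested and 0.23 over genes in the same range of levels. The immunosubunits did not follow them, with a median r of 0.04 with core and -0.09 with cap genes. Psme1 and Psme2 had an r of 0.85 with each other. Replicate 2 of HFD carried part of this, and without it the medians were 0.49, 0.60 and 0.44, and for the immunosubunits -0.20 and -0.34. The medians over all genes and over genes in the same range were not recomputed without it, so the excess over other genes there is unknown. All pairs share the same 18 libraries, so these values are a description.

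The comparison of A10-FMT with HFD asked what microbiota of donors given AOS did to livers on the high-fat diet. Of the 47 genes, 2 fell, both cap subunits, and 0 rose, where 6.60% of all genes tested were called. At an unadjusted p under 0.05 there were 1 higher and 14 lower, or 31.9% of the 47, where 24.5% of all genes were. Psmd2, a large scaffold subunit at the base of the cap that receives ubiquitin receptors (chr16:20651122-20663414), stood at 52.8, 58.6 and 52.8 RPKM in HFD and at 43.2, 41.8 and 47.8 in A10-FMT. The groups did not overlap, and replicate 2 of HFD was the highest of all livers. It fell by 0.30 on the log2 scale (SE 0.072, 0.812-fold, adjusted p = 0.0220, limma). Psmd11 stood at 54.8, 72.5 and 60.1 RPKM in HFD and at 43.2, 39.7 and 53.2 in A10-FMT. Again no A10-FMT liver reached the lowest HFD liver, although replicate 3 of A10-FMT came close to it. Psmd11 fell by 0.45 (SE 0.110, 0.730-fold, adjusted p = 0.0228, limma).

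Both calls were lost with 5 changes of the libraries or of the fit. The adjusted p of Psmd2 and Psmd11 by limma was 0.0952 and 0.1001 without replicate 2 of HFD, 0.0844 and 0.0884 without replicate 1 of A10-FMT, and 0.109 and 0.118 without replicate 2 of A10-FMT. It was 0.0504 and 0.0503 without the third Con and AOS libraries, which left the differences themselves at 0.30 and 0.45 below HFD, and 0.190 and 0.195 with only the A10-FMT and HFD libraries in the fit. Without replicate 3 of HFD Psmd11 alone was lost (adjusted p = 0.0539, limma). Leaving out replicate 1 of HFD gave 5 calls, and leaving out replicate 3 of A10-FMT gave 7.

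**Figure D2:**
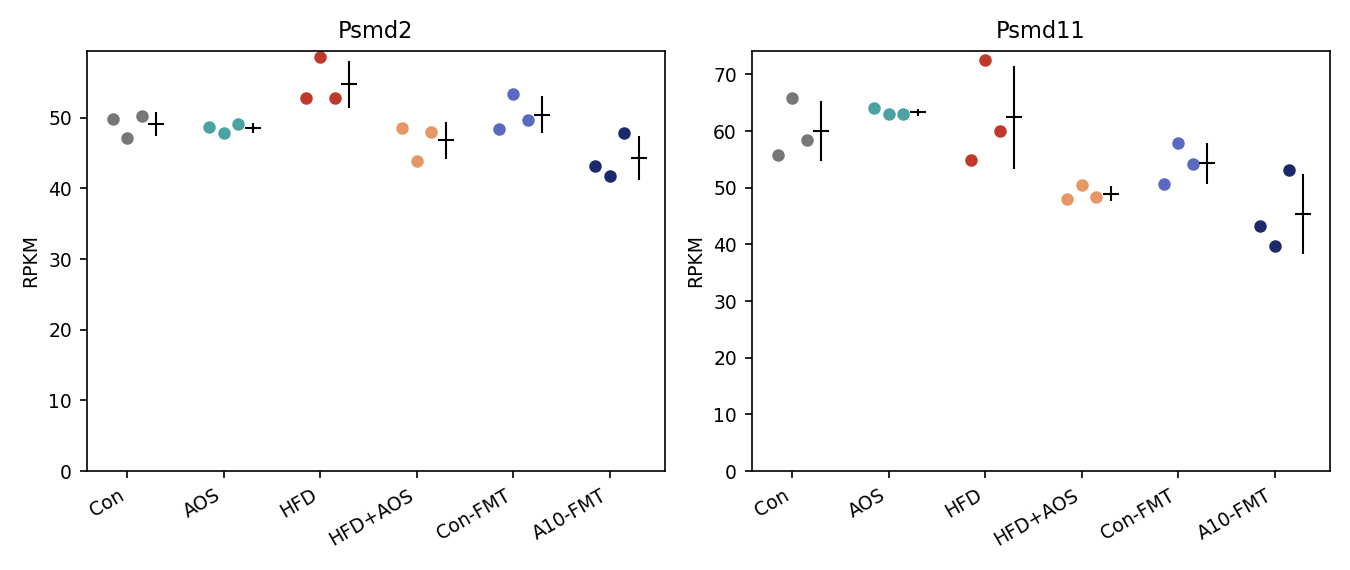
RPKM of Psmd2 and Psmd11 in each of the 18 libraries (points, replicates 1 to 3 from left to right) with the group mean ± SD (black, n = 3). In both panels the 3 A10-FMT livers lie below the 3 HFD livers, and replicate 2 of HFD is the highest point.

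Below the threshold, and in the values as deposited, the cap genes lay on the same side of HFD and the core genes did not. All 17 cap genes were below 0 in A10-FMT against HFD, with a median of -0.20 and a range from -0.45 to -0.02, where the median over all genes was -0.03. Of the 14 core genes, 7 were below 0, with a median of -0.01. With a trend over transcript length removed, as described below, 11 of them were below 0, with a median of -0.07. Without replicate 2 of HFD the cap median was -0.12 and the core median 0.06. In 7 of the 17 cap genes and 0 of the 14 core genes every A10-FMT liver was below every HFD liver, as for 13.4% of all genes tested. Psmd14 stood at 27.1, 37.4 and 30.1 RPKM in HFD and at 23.2, 22.5 and 30.5 in A10-FMT, so the groups overlapped through replicate 3 of A10-FMT (log2 difference -0.30, SE 0.128, adjusted p = 0.158, limma). Psmc4, an ATPase of the ring, stood at 61.9, 72.1 and 57.2 in HFD and at 54.7, 55.7 and 62.8 in A10-FMT, and overlapped likewise. Among core genes Psma1 had the smallest p, with a log2 difference of -0.25 (SE 0.090, adjusted p = 0.0991, limma), followed by Psma3 at -0.12. Cap genes move together between livers, as shown above, so 17 genes on 1 side are not 17 separate observations.

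HFD+AOS against HFD, the high-fat diet with AOS beside the diet alone, shares its HFD libraries with the previous comparison. No proteasome gene was called, where 8.75% of all genes tested were. At an unadjusted p under 0.05 in limma there were 3 higher and 12 lower, or 31.9% of the 47, where 26.2% of all genes passed. The cap median was -0.18, with 16 of 17 genes below 0, and the core median -0.05, with 8 of 14 below 0. Without replicate 2 of HFD they were -0.11 and 0.07, which turns the direction of the core. Every HFD+AOS liver lay below every HFD liver for 8 cap genes and 1 core gene, against 14.0% of all genes tested. The cap gene with the smallest p was Psmd2, at 48.5, 43.9 and 48.1 RPKM in HFD+AOS against 52.8 to 58.6 in HFD (log2 difference -0.22, SE 0.072, adjusted p = 0.0676, limma). Next was Psmd11, at 48.1, 50.5 and 48.4 against 54.8 to 72.5 (-0.34, SE 0.110, adjusted p = 0.0677, limma). Both sets of livers were apart. For the core, Psma1 had a log2 difference of -0.27 (adjusted p = 0.0723, limma) and Psma7 of 0.11 (adjusted p = 0.352, limma).

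Setting the medians of all libraries equal gave 5 calls in HFD+AOS against HFD, with Psma1, Psmc6, Psmd2 and Psmd11 lower and the chaperone Psmd9 higher. The replicate number as a block gave 1, Psmc2. Without replicate 1 of HFD there were 5, without replicate 3 of A10-FMT 2, and without replicate 2 or 3 of Con-FMT 1. Psmd9, which holds cap ATPases together during assembly, stood at 9.33, 8.60 and 9.55 RPKM in HFD+AOS and at 6.28, 7.78 and 7.31 in HFD, with no overlap (log2 difference 0.33, SE 0.103, adjusted p = 0.0590, limma).

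**Figure D3:**
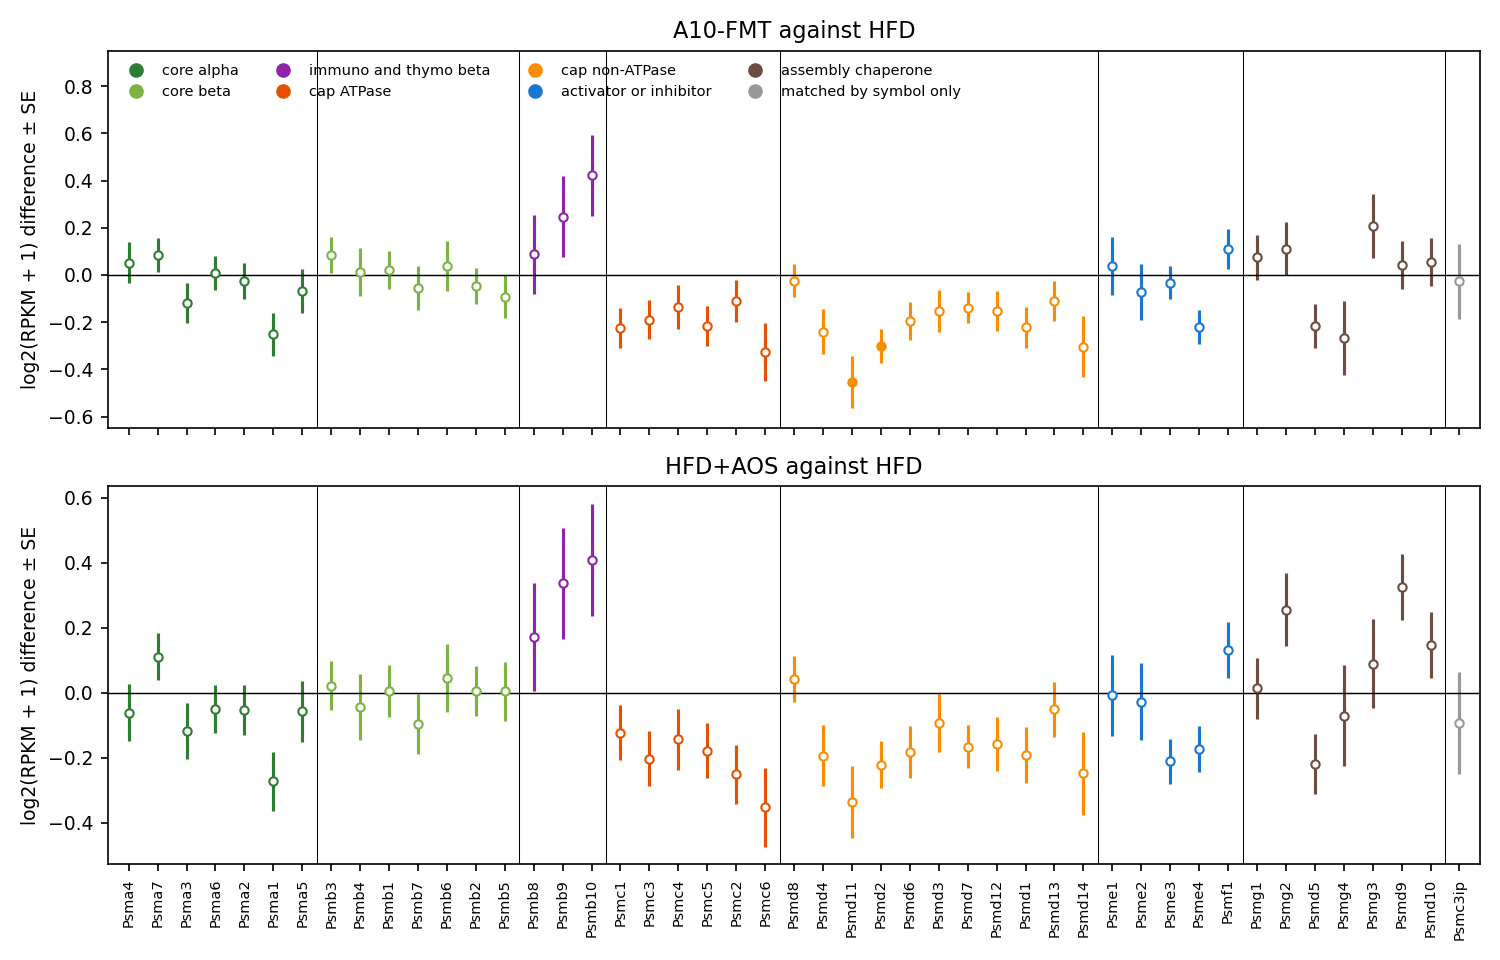
Difference in log2(RPKM + 1) ± SE (limma) of the 47 proteasome genes in A10-FMT and in HFD+AOS against HFD, ordered by class. Filled points passed an adjusted p of 0.05, which only Psmd2 and Psmd11 did in A10-FMT. In the values as deposited, cap genes lie below 0 in both panels except Psmd8 in HFD+AOS, and core genes lie on both sides.

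In the other 5 comparisons limma called 0 proteasome genes. In HFD against Con, 0.381% of all genes tested were called, and at an unadjusted p under 0.05 the proteasome had 1 gene of 47, Psme4, where 15.4% of all genes passed. Without the third Con and AOS libraries 0 of all genes were called, against 40 with them. It was 0 as well without replicate 1 of Con alone or without replicate 3 of Con alone. The core median was 0.01, the cap median 0.05 and that of all genes 0.05. They were 0.02 and 0.06 without replicate 3 of Con and of AOS, -0.07 and -0.01 without replicate 2 of HFD, 0.07 and 0.12 without replicate 1 of HFD, and -0.01 and 0.02 without replicate 1 of Con, so neither median has a settled direction. For 2 of the 47 genes the groups did not overlap, against 18.5% of all genes in either direction. The smallest p belonged to Psmb3 (log2 difference -0.13, adjusted p = 0.424) and Psma3 (0.13, adjusted p = 0.507) of the core and to Psmd2 (0.15, adjusted p = 0.324) and Psmc6 (0.19, adjusted p = 0.467) of the cap, by limma. Con-FMT against HFD, the transplant without AOS, had 0 at an unadjusted p under 0.05, where 6.63% of all genes passed, and 0.00952% of all genes were called. Its core median was -0.07 and its cap median -0.11 beside a median of -0.00 for all genes, and 0 cap or core genes were apart, where 4.08% of all genes were lower without overlap. Here too most were below 0 against the same HFD libraries, with 16 of 17 cap and 12 of 14 core genes, where 50.5% of all genes were. The smallest p belonged to Psma1 (-0.15) and Psma3 (-0.12) of the core and to Psmc3 (-0.17) and Psmd11 (-0.19) of the cap, with adjusted p from 0.742 to 0.842 by limma. Without replicate 2 of HFD these medians were 0.01 and -0.02.

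A10-FMT against Con-FMT sets transplants from donors given AOS beside transplants from control donors. Recipients of a group shared a pooled inoculum, so donor AOS and any other difference between the pools cannot be told apart. Here 1.68% of all genes tested were called. At an unadjusted p under 0.05 in limma 1 proteasome gene was higher and 3 lower, or 8.51% of the 47, where 16.4% of all genes passed. The core median was 0.03 and the cap median -0.09, with 14 of 17 cap genes below 0. With 1 library left out the core median lay between -0.02 (without replicate 1 of Con-FMT) and 0.07 (without replicate 3 of Con-FMT), and the cap median between -0.17 (without replicate 3 of A10-FMT) and -0.05 (without replicate 1 of A10-FMT). Psmd2 stood at 48.4, 53.3 and 49.7 RPKM in Con-FMT and was again apart from A10-FMT (log2 difference -0.19, SE 0.072, adjusted p = 0.214, limma). Psmd11 at 50.7, 58.0 and 54.2 overlapped A10-FMT (-0.26, SE 0.110, adjusted p = 0.246, limma), and was called without replicate 3 of A10-FMT (adjusted p = 0.0496, limma). Psmb3 (0.15, adjusted p = 0.332) and Psma4 (0.13, adjusted p = 0.469) had the smallest p of the core. In AOS against Con, whose labels name no high-fat diet, 0.133% of all genes tested were called. That is 14 genes and becomes 0 without replicate 3 of Con and of AOS. It also becomes 0 with replicate 1 of Con, replicate 3 of Con or replicate 3 of AOS alone left out. The core median was 0.07 and the cap median -0.01, beside 0.07 for all genes. Without replicate 3 of Con and of AOS they were 0.09 and 0.01. The core median was 0.02 without replicate 1 of Con, and the cap median 0.0041 without replicate 3 of Con, so the direction of the cap is not settled. The smallest p belonged to Psma7 (0.15, adjusted p = 0.350) and Psma3 (0.15, adjusted p = 0.415) of the core and to Psmd3 (0.08, adjusted p = 0.698) and Psmc4 (-0.08, adjusted p = 0.714) of the cap, by limma. Of the other matches, Psmc3ip was lower in all 3 AOS livers (2.67 to 3.57 RPKM) than in Con (5.08 to 7.08), with an adjusted p of 0.0815 by limma, and it was the 1 match at an unadjusted p under 0.05, where 15.5% of all genes passed.

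The AOS effect on the high-fat diet minus that without the high-fat diet called 0 proteasome genes, where 0.504% of all genes tested were called. At an unadjusted p under 0.05 there were 4 lower, and the 1 higher match was Psmc3ip, which is not a subunit, where 14.7% of all genes passed. The core median was -0.11 and the cap median -0.18, beside -0.08 for all genes, and they were -0.14 and -0.21 once replicate 3 of Con and of AOS was dropped. Without replicate 2 of HFD the core median was -0.0084 and the cap median -0.11, beside -0.05 for all genes. Psmd11 (-0.42, SE 0.155, adjusted p = 0.235, limma) and Psmc6 (-0.44, SE 0.172, adjusted p = 0.254, limma) had the smallest p of the cap, and Psma3 (-0.27) and Psma1 (-0.26) of the core. A difference between the diets in the response of any single subunit was not shown.

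Core and cap genes can be compared within a library, where a common scaling of the library cancels. The quantity is the mean log2(RPKM + 1) of the 14 core genes minus that of the 17 cap genes. It was chosen after the values were seen and is given as a description with no test. It was 0.843, 0.885 and 0.851 in Con, 0.945, 0.916 and 0.933 in AOS, and 0.794, 0.810 and 0.820 in HFD. HFD lay lowest and AOS above Con, with no overlap among these 3 groups. The third Con and AOS libraries may not be separate livers, as stated above. With replicates 1 and 2 alone of Con and AOS the groups were still apart. It was 0.956, 0.945 and 0.941 in HFD+AOS, 0.874, 0.812 and 0.876 in Con-FMT, and 1.07, 1.01 and 0.889 in A10-FMT. All livers of AOS, HFD+AOS and A10-FMT lay above all livers of Con, HFD and Con-FMT. Against HFD the difference was 0.18 in A10-FMT and 0.14 in HFD+AOS, and it was 0.05 in Con-FMT. Replicate 2 of HFD, at 0.810, did not stand apart in this quantity. Leaving out any 1 gene moved the A10-FMT difference between 0.16 and 0.20.

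Transcript length moved with this quantity. Core transcripts are shorter (median 1163 bases for the longest coding transcript of a gene in GENCODE M21) than cap transcripts (1819), and across all genes longer ones were lower in A10-FMT against HFD (r = -0.17 with log2 length) and in HFD+AOS against HFD (r = -0.14), and higher in HFD against Con (r = 0.23). These are correlations across genes, which are not independent replicates. With the median deviation of genes of like length removed from each library, the quantity was 0.823 to 0.861 in HFD, 0.941 to 0.951 in HFD+AOS, 0.914 to 1.02 in A10-FMT, 0.861 to 0.908 in Con-FMT, 0.902 to 0.937 in AOS and 0.808 to 0.832 in Con. HFD stayed apart from HFD+AOS and A10-FMT, with the differences reduced to 0.10 and 0.12. The order of HFD and Con turned, since HFD minus Con went from -0.05 to 0.02 and the groups overlapped, and AOS no longer lay above all Con-FMT livers. Length was first taken as the median over a gene's coding transcripts, which gave HFD minus Con as -0.03 and A10-FMT minus HFD as 0.17. That definition was replaced because truncated transcripts put Psmd2 at 659 bases, against 2961 for its longest, so the order of HFD and Con rests on how length is defined.

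**Figure D4:**
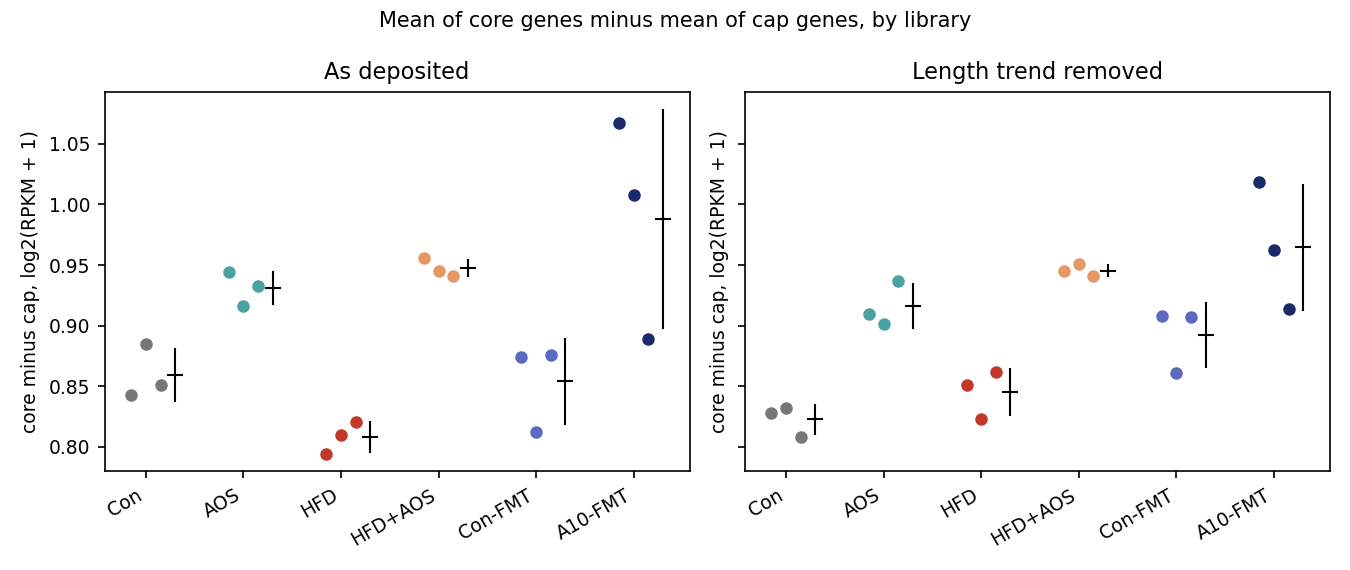
Mean log2(RPKM + 1) of 14 core genes minus that of 17 cap genes in each library (points) with the group mean ± SD (black, n = 3), as deposited and with the trend over transcript length removed. HFD lies lowest as deposited (0.794 to 0.820), whereas with the trend removed HFD (0.823 to 0.861) overlaps Con (0.808 to 0.832) and both remain below HFD+AOS and A10-FMT.

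The immunosubunits were compared with the standard subunits they replace, as a share of the RPKM of each pair, in which scaling cancels. Psmb8, Psmb9 and Psmb10 together made up 18.9% ± 2.81 of their pairs in Con, 21.2% ± 2.62 in AOS, 19.1% ± 1.65 in HFD, 22.8% ± 0.130 in HFD+AOS, 20.4% ± 3.38 in Con-FMT and 22.3% ± 2.86 in A10-FMT (SD, n = 3). Without the third libraries the means of Con and AOS were 19.005% and 21.1%, and without replicate 2 that of HFD was 18.99%. The HFD livers were at 17.3%, 19.3% and 20.6% and the HFD+AOS livers at 22.7%, 22.7% and 22.9%, which do not overlap. A10-FMT, at 23.3%, 24.5% and 19.1%, overlapped HFD through replicate 3. Of the pairs, Psmb9 with Psmb6 was at 19.6% to 20.6% in HFD and 22.9% to 24.3% in HFD+AOS, and Psmb10 with Psmb7 at 10.2% to 14.9% and 15.5% to 18.2%. Psmb8 with Psmb5 overlapped, at 24.2% to 28.5% and 27.9% to 29.96%. None of the 3 was called: in HFD+AOS against HFD Psmb10 had a log2 difference of 0.41 (SE 0.172, adjusted p = 0.145, limma), and in A10-FMT against HFD of 0.42 (SE 0.172, adjusted p = 0.146, limma).

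**Figure D5:**
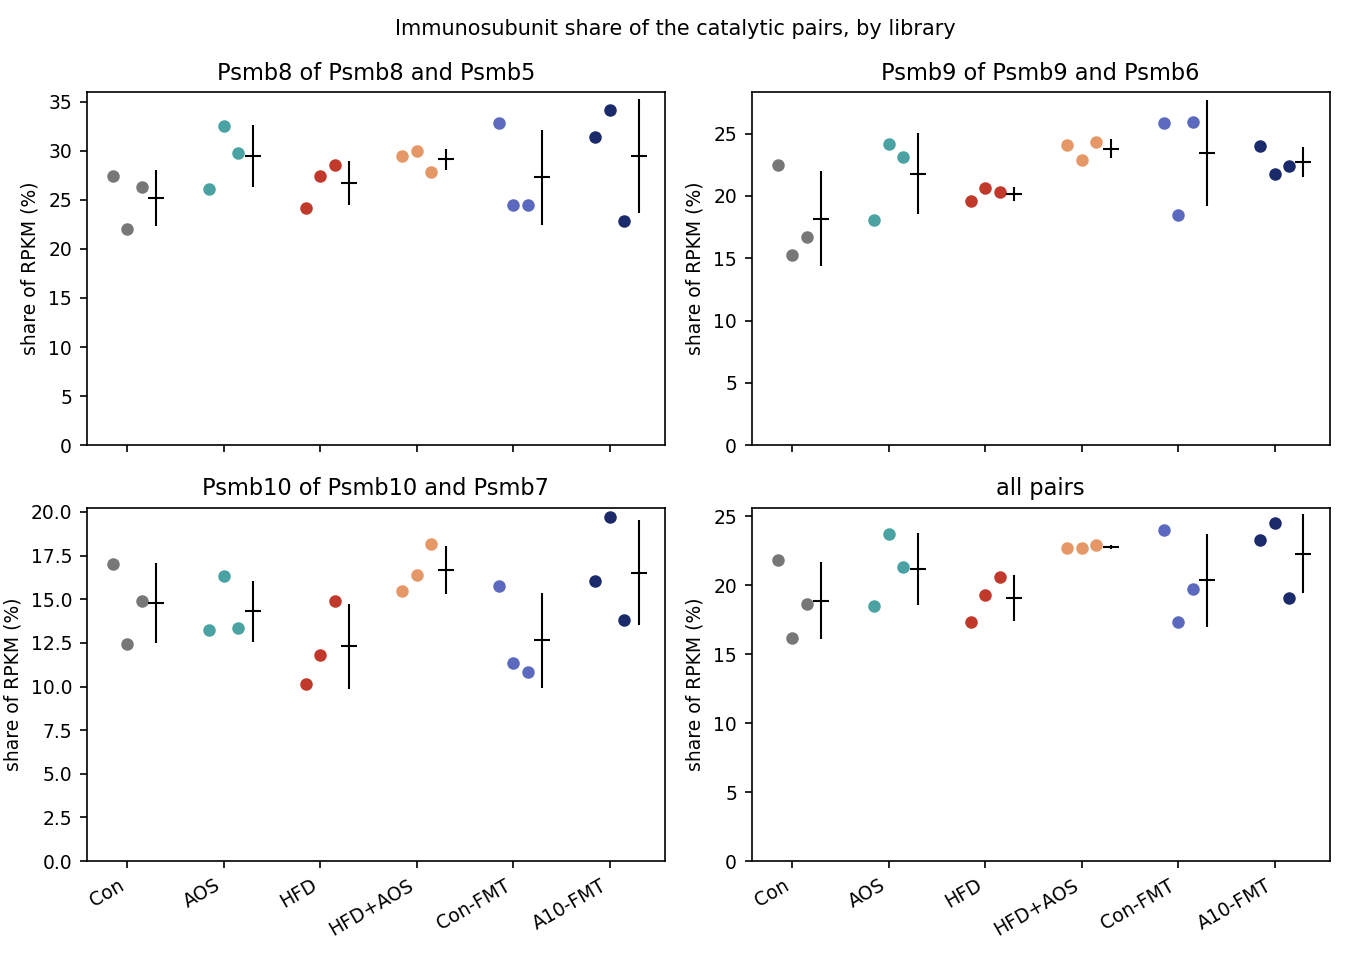
Share of the RPKM of each catalytic pair held by the immunosubunit, in each library (points) with the group mean ± SD (black, n = 3), for the 3 pairs and for all together. For all pairs the HFD+AOS livers (22.7% to 22.9%) lie above the HFD livers (17.3% to 20.6%), and the other groups spread more widely.

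Immune cells carry immunosubunits, and their markers were read beside these shares. Summed over 12 genes, Kupffer cell and macrophage markers were at 96.3 to 222 RPKM in HFD, 141 to 160 in HFD+AOS and 107 to 133 in A10-FMT. Lymphocyte markers, of which 4 of 16 passed the filter, summed to 5.80 to 6.28, 6.09 to 7.76 and 4.43 to 12.2. None of these markers was called in any comparison by limma, and their part in the shares was not tested. Markers of stellate cells, which store retinol, summed over 8 genes to 139 to 164 RPKM in HFD, 138 to 188 in HFD+AOS, 128 to 172 in Con-FMT and 167 to 178 in A10-FMT. A10-FMT did not overlap HFD, 7 of the 8 genes were above 0 against HFD and 8 of 8 against Con-FMT, 8 of 8 were above 0 in HFD+AOS against HFD, and limma called 0. Their part in the differences of the proteasome was not tested.

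Among hepatocyte and bile duct markers limma called a few genes, and the lists did not lie on 1 side. Of 8 hepatocyte markers, 4 were below 0 in A10-FMT and 3 in HFD+AOS against HFD, with medians of 0.0041 and 0.13. Of these Apob fell in both (log2 differences -0.40 and -0.37) and Hnf4a in HFD+AOS (-0.26), where 6.60% and 8.75% of all genes were called in the 2 comparisons. Of 3 bile duct markers tested, 1 was below 0 in both, Sox9, which fell (-1.03 and -0.87), while the medians were 0.18 and 0.04. Without replicate 2 of HFD Sox9 alone of these remained called.

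Genes around the proteasome changed in a few places. Of 10 partners outside the rule, limma called 0 in any comparison, and their median was -0.12 in A10-FMT and -0.11 in HFD+AOS against HFD. Among them Pomp, the chaperone of core assembly, was at 144 ± 20.2 RPKM in HFD and 154 ± 11.0 in A10-FMT. Of 12 tested genes around Nfe2l1, 2 fell in A10-FMT against HFD, where 6.60% of all genes were called, namely Sel1l (log2 difference -0.45, adjusted p = 0.0489), of the pathway that exports misfolded proteins from the endoplasmic reticulum, and Ddi2 (-0.46, adjusted p = 0.0470), the protease that activates Nfe2l1. Nfe2l1 was at 25.0 ± 1.21 RPKM in HFD, 22.4 ± 1.42 in A10-FMT and 22.2 ± 2.49 in HFD+AOS and was not called. Maff, a small Maf partner of Nfe2l1, rose in HFD+AOS against HFD (0.89, adjusted p = 0.0141) and in A10-FMT against Con-FMT (0.88, adjusted p = 0.0342), where Sel1l fell (-0.58, adjusted p = 0.0309), all by limma. Maff is low, at 4.53, 1.81 and 2.18 RPKM in A10-FMT and 0.89, 1.21 and 0.9 in Con-FMT, with replicate 1 of A10-FMT far above the others. Its call against Con-FMT held in 14 of 24 alternatives. Without replicate 2 of HFD the calls of Sel1l and Ddi2 against HFD were lost (adjusted p = 0.141 and 0.115, limma), and Maff kept its call against HFD (adjusted p = 0.0435, limma). Without the third Con and AOS libraries all of these calls were lost (adjusted p from 0.0743 to 0.0893, limma) but that of Maff in HFD+AOS (adjusted p = 0.0314, limma).

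Of 19 genes of ubiquitin supply and shuttling, 2 fell both in A10-FMT and in HFD+AOS against HFD, comparisons that share the HFD libraries and in which 6.60% and 8.75% of all genes were called. Ubqln1, which carries ubiquitinated proteins to the proteasome, stood at 45.8, 51.2 and 53.1 RPKM in HFD, at 28.3, 30.3 and 41.5 in A10-FMT and at 34.0, 34.7 and 37.9 in HFD+AOS. All livers of both groups lay below HFD (log2 differences -0.59 and -0.48, adjusted p = 0.0106 and 0.0267, limma). It fell against Con-FMT as well (-0.52, adjusted p = 0.0430, limma). Faf2, a recruiter of the unfoldase Vcp, fell by 0.35 in A10-FMT (adjusted p = 0.0222) and by 0.28 in HFD+AOS (adjusted p = 0.0477, limma). Without replicate 2 of HFD Ubqln1 in A10-FMT against HFD remained called (adjusted p = 0.0423, limma), and the other calls of both genes were lost (adjusted p from 0.0562 to 0.161, limma). When replicate 3 of Con and of AOS was dropped, the calls of Ubqln1 and Faf2 in A10-FMT against HFD remained (adjusted p = 0.0274 and 0.0423, limma) and the others were lost (0.0549 to 0.0975). The median of the list was -0.18 and -0.16, beside -0.03 and -0.01 for all genes.

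Of 18 tested genes of antigen processing induced by interferon gamma, limma called 0 in any comparison. Tap1, the neighbour of Psmb9, was at 6.41 ± 0.738 RPKM in HFD and 8.40 ± 0.515 in HFD+AOS (log2 difference 0.35, adjusted p = 0.0849, limma). Across the 18 libraries, with group means subtracted, its r with Psmb9 was 0.48. Irf1, a transcription factor of the interferon response, was at 13.2 ± 0.401 in HFD and 15.7 ± 1.54 in HFD+AOS (0.24, adjusted p = 0.272, limma). The median of the list was 0.16 in HFD+AOS and -0.04 in A10-FMT against HFD.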

How the data were processed

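Liver RNA-seq values of 18 libraries were used as deposited. The authors transformed read numbers to RPKM values, deposited with 2 decimals. Their methods name SOAPaligner against reference genes, whereas the submitters' processing notes name Bowtie 0.12.2 and mm10, so the aligner is uncertain. Read numbers were not beside the values, so depth is unknown and tests that need counts, DEGseq among them, were not run. The paper's methods do not state strand, and 3 proteasome genes have a named pseudogene that could share reads.

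The filter on low values asked for 3 or more libraries with RPKM of 1 or above. Values were log2(RPKM + 1), so fold changes of low genes are understated. Means of 6 groups were fitted over all 18 libraries with limma 3.58.1 (R 4.3.3; functions lmFit and eBayes, the latter with its trend option, two-sided), and each of 7 comparisons had its own Benjamini-Hochberg adjustment. The fit was tested on simulated data. Python 3.11.15, numpy 2.4.6, pandas 2.3.3 and matplotlib 3.10.9 were used otherwise.

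The members and lists were chosen with earlier results of these data known. Named genes are those called, otherwise the 2 core and 2 cap genes of smallest p, the catalytic pairs, Psmc4, Psmd14, Psme1, Psme2, the extremes of level of each class, Nfe2l1, Pomp, Tap1, Irf1 and related genes called. Other genes were named after their values were seen. The alternatives were equal library medians, a pseudocount of 0.1, no filter, only the groups compared, a replicate block and each library left out, all planned. Core minus cap and its trend removal over 20 bins of length or level were added after seeing the data, and transcript length was defined in 2 ways.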

Additional observations from a re-analysis of the deposited data

How the results depend on the processing

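Counts of genes called moved most in A10-FMT against HFD, where 2 became 0 with only the groups compared or without the third Con and AOS libraries, and lay between 0 and 7 with 1 library left out. In HFD+AOS against HFD, 0 became 5 with equal medians, 1 under the replicate block, and 0 to 5 with 1 library left out. The replicate block changed no other count of proteasome genes. Over all genes it moved HFD against Con from 31 higher and 9 lower to 2 and 3. Same-numbered replicates correlated between -0.177 and 0.225, and 0 comparisons had every correlation above 0.1. Correlations of this kind cannot exclude pairing or a shared batch. A10-FMT against Con-FMT had 0 to 1 with 1 library left out, and the other 4 comparisons stayed at 0 under every alternative.

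Median differences of the core lay, with 1 library left out, between -0.0682 and 0.0672 in HFD against Con, -0.133 and 0.0149 in Con-FMT against HFD, -0.0959 and 0.0723 in HFD+AOS against HFD, and -0.177 and -0.00835 for the difference between diets, which was -0.0250 with equal medians. The ends nearest to or past 0 came without HFD replicate 2. The cap median lay between -0.145 and -0.0234 in Con-FMT against HFD, -0.25 and -0.12 in A10-FMT against HFD, and -0.23 and -0.11 in HFD+AOS against HFD.

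Core minus cap was, with class medians, -0.100 for HFD against Con, 0.222 for A10-FMT and 0.226 for HFD+AOS, each against HFD. With the length trend removed it was 0.0226 for HFD against Con, a change of sign, 0.119 for A10-FMT against HFD and 0.0727 for A10-FMT against Con-FMT. With length and level trends removed it was 0.0147, 0.106 and 0.0677 in these, and 0.0841 in HFD+AOS against HFD. With 1 library left out it lay between 0.140 and 0.229 in A10-FMT against HFD and between 0.0945 and 0.184 in A10-FMT against Con-FMT. The immunosubunit shares were recomputed with each library left out, which with groups of 3 cannot move a mean past its SD and so says nothing of their stability. The causes were not tested. Groups of 3 and unknown depth limit the precision.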
